A study of Mus musculus with 5 samples.

Results

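The 59210 probes of mouse chromosome 8, chosen by the chromosome name in the probe table, make up 15.4% of the 385000 probes of a 4C microarray on which contacts of the β-major globin promoter were measured. The viewpoint lies on chromosome 7, so signal on chromosome 8 is signal in trans, that is, from another chromosome. Single-cell suspensions of E14.5 mouse fetal liver, a tissue rich in erythroid cells, were cultured and then processed by 4C with HindIII and NlaIII. The 5 samples were untreated A (dye Cy3), untreated B (Cy5), α-amanitin A (Cy3), α-amanitin B (Cy5) and a single DRB sample (Cy5), each on an array of its own. α-amanitin was given for 5 h, at 100 µg/ml in the study's methods and at 100 mg/ml in the sample labels, and DRB for 3 h at 100 µM. The replicate letter and the dye changed together and cannot be told apart. The study describes its 4C duplicates as independent replicate experiments. Nothing in the labels says whether these duplicates came from separate livers, so the spread between them may still be technical.

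4C captures the DNA that lies close to a chosen viewpoint in the nucleus. Chromatin is fixed, digested and religated, inverse PCR from the viewpoint then amplifies whatever was ligated to it, and the product is read on probes beside restriction sites. Chromosomes occupy territories of their own, so most captured fragments come from the viewpoint's chromosome, and a contact in trans is read as a run of neighbouring probes that are bright together, since a single bright probe can also come from a chance ligation or from hybridization of other DNA. α-amanitin binds RNA polymerase II and blocks both initiation and elongation. DRB inhibits the kinases that phosphorylate the tail of the polymerase and blocks elongation. The comparison asks whether runs of bright probes on chromosome 8 were the same with and without ongoing transcription.

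The signal, called PM, is the uncorrected scanner intensity. A second, independently processed sample had been hybridized to each array in the other dye; its signal was not used here and the sources used here do not name it. In other 4C experiments the study also used a viewpoint on chromosome 8, whose place in the probe order is not given in the files. Whether either contributed to the signals described here was not tested. The files give 0 as the position of every probe and no probe sequence, so the running number at the end of each probe identifier set the order of the probes, and no gene, annotation or sequence could be assigned. Positions in Mb are distances from the first chromosome 8 probe, estimated from the submitters' average of 60 kb per 29 probes, and are approximate.

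Most of chromosome 8 was dim and flat. The median probe signal was 484 and 419 in untreated A and B, 687 and 469 in α-amanitin A and B, and 482 in DRB. In every sample chromosome 8 ranked 2 among the 6 chromosomes in trans by median signal, below chromosome 11. A running median of 29 probes smoothed the signal, and the threshold of a sample was the highest running median found in any of 100 random orders of its own chromosome 8 probes. This threshold was 1128 and 997 in untreated A and B, 1153 and 791 in α-amanitin A and B, and 1490 in DRB. It corresponded to 2.33 and 2.38 times the chromosome's median probe signal in the untreated samples, 1.68 and 1.69 times in the α-amanitin samples and 3.09 times in DRB, so the same height above background did not pass equally easily in all samples. The highest running median on chromosome 8 was between 4.18% (untreated A) and 13.96% (DRB) of that on chromosome 7, which holds the viewpoint. The chromosome 7 maxima ran from 62248 up to the scanner's highest value. Only α-amanitin A reached that value, so its percentage, 8.85%, is an upper bound. The maxima of the other samples lay close below it.

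In both untreated samples 222 of 59182 windows were above threshold, or 0.375%. They formed 9 regions of directly adjacent windows. When windows that share probes were joined, the regions made up 5 clusters with 368 probes in all, here called C1 to C5 in probe order. The choice of the clusters used the untreated signals, so the untreated values below describe the clusters and do not test them. All 5 lay far from both ends of the probe order, at 13.1%, 42.0%, 64.6%, 65.0% and 82.4% of it.

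**Figure D1:**
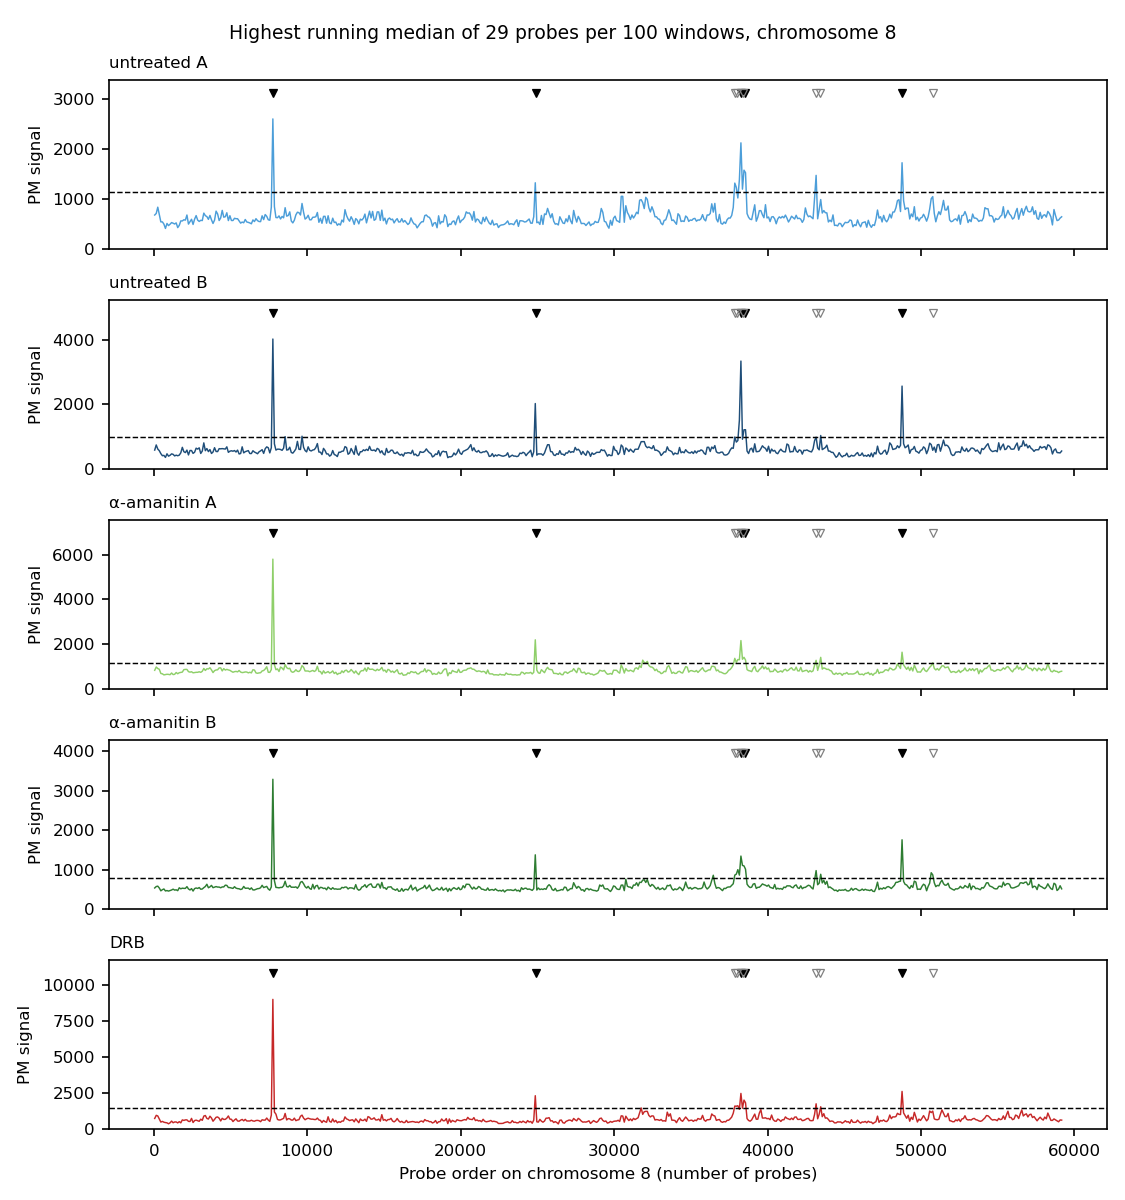
Highest running median of 29 probes (PM signal, vertical axis, a separate scale for each sample) in bins of 100 windows along the probe order of chromosome 8 (horizontal axis). The dashed line is the threshold of the sample, black triangles mark the 5 clusters found in both untreated samples and open triangles the 6 found in both α-amanitin samples only; the tallest peak in all 5 samples is C1.

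C1 had the highest peak in every sample. It held 74 probes, from place 7749 to 7822 in the order, at an estimated 16.0 to 16.2 Mb. Its highest running median was 2605 and 4030 in untreated A and B, 5803 and 3288 in α-amanitin A and B, and 8994 in DRB. These peaks stood at 2.31 and 4.04 times the threshold in the untreated samples, 5.03 and 4.16 times in the α-amanitin samples and 6.04 times in DRB. Untreated A was the lowest of the 5, untreated B and α-amanitin B lay close together, and DRB was the highest. The cluster was not carried by a few probes: 20 of its 74 probes were bright in all 5 samples, bright meaning above the 95th percentile of all probes in trans in that sample, and 23 were bright in none. Only 62.2% of the running numbers across C1 were present on the array, against 78.4% over the chromosome.

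C2 had the lowest peak of the 5 by its lower untreated ratio to threshold, and few of its running numbers were on the array. It held 47 probes, places 24872 to 24918, which spanned 448 running numbers, so 10.5% of the numbers were present. The authors left out probes like repeats or with several genomic hits. Whether the missing numbers are those probes is not given in the files. The sparsest window of the whole chromosome lay in C2, with 6.84% of its numbers present, whereas the median window had 85.3%. Because of these missing numbers its estimated width was 726 kb by running number and 97.2 kb by probe count. The running median peaked at 1322 and 2025 in untreated A and B, 2194 and 1373 in α-amanitin A and B, and 2314 in DRB. The peak was 1.17 and 2.03 times the threshold in the untreated samples, 1.90 and 1.73 times in the α-amanitin samples and 1.55 times in DRB. Of its 47 probes 4 were bright in all samples and 24 in none. The 100 probes on either side were dim, with 1% to 3% of them bright in the 5 samples, so C2 had a sharp edge. With windows of 15 or 59 probes the lower untreated peak of C2 fell to 0.774 and 0.804 of the threshold, so C2 was found with windows of 29 probes and not with these widths.

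C3 held the most probes of the 5 clusters, 145, places 38184 to 38328, at an estimated 81.4 to 81.7 Mb, and 87.9% of its running numbers were on the array. At its summit the running median was 2124 and 3345 in untreated A and B, 2160 and 1341 in α-amanitin A and B, and 2473 in DRB. Untreated B stood at 3.35 times its threshold, and the other 4 samples lay between 1.66 and 1.88 times. All peaks of C3 fell within places 38263 to 38271, so the summit was at the same probes in all 5 samples. Of its 117 windows 115 were above threshold in both untreated samples, 96 in both α-amanitin samples and 90 in DRB. Of its 145 probes 18 were bright in all samples and 63 in none.

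C4 followed C3 after 156 further probes. It held 48 probes, places 38485 to 38532, at an estimated 82.1 to 82.2 Mb. Its highest running median was 1575 and 1212 in untreated A and B, 1412 and 1092 in α-amanitin A and B, and 2010 in DRB. The peaks were 1.40, 1.22, 1.22, 1.38 and 1.35 times the thresholds in the same order, the narrowest range of the 5 clusters. Only 3 of its 48 probes were bright in all samples, and 27 in none. With windows of 15 probes its lower untreated peak was 0.830 of the threshold.

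C5 held 54 probes, places 48751 to 48804, at an estimated 103 Mb, with 80.6% of its running numbers on the array. The running median of its summit was 1725 and 2568 in untreated A and B, 1639 and 1754 in α-amanitin A and B, and 2611 in DRB. Relative to the thresholds these were 1.53, 2.57, 1.42, 2.22 and 1.75. Both samples with the letter B stood higher than both with the letter A, and the summit was at place 48780 in all 5 samples. Of its 54 probes 6 were bright in all samples and 29 in none.

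All 5 untreated clusters also had windows above threshold in both α-amanitin samples, where 0.531% of all chromosome 8 windows passed. All 5 also had windows above threshold in the DRB sample, where 0.384% of windows passed. A cluster counted with any window above threshold, whereas these shares are of single windows. The untreated clusters of chromosomes 11, 12 and 14, counted below by the same rule, also all passed in both treatments. The windows shared were most of each cluster: in both α-amanitin samples 46 of 46 windows of C1, 19 of 19 of C2, 96 of 117 of C3, 18 of 20 of C4 and 20 of 26 of C5 passed. In DRB these numbers were 44, 19, 90, 12 and 26. Both comparisons use the same untreated samples, and DRB has no replicate. With windows of 15 probes 4 untreated clusters were found, of which 4 passed in both α-amanitin samples and 2 in DRB. With a running mean in place of the median, at a false discovery rate below 0.05, none of C1 to C5 passed in both untreated samples; the lower untreated peak was then 0.451 to 0.747 of the threshold, and the 1 cluster found lay elsewhere and passed in neither treatment. With 20 other random seeds for the orders, tried after the main result was seen, 4 to 7 untreated clusters were found, of which 4 to 7 passed in α-amanitin and 4 to 6 in DRB.

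**Figure D2:**
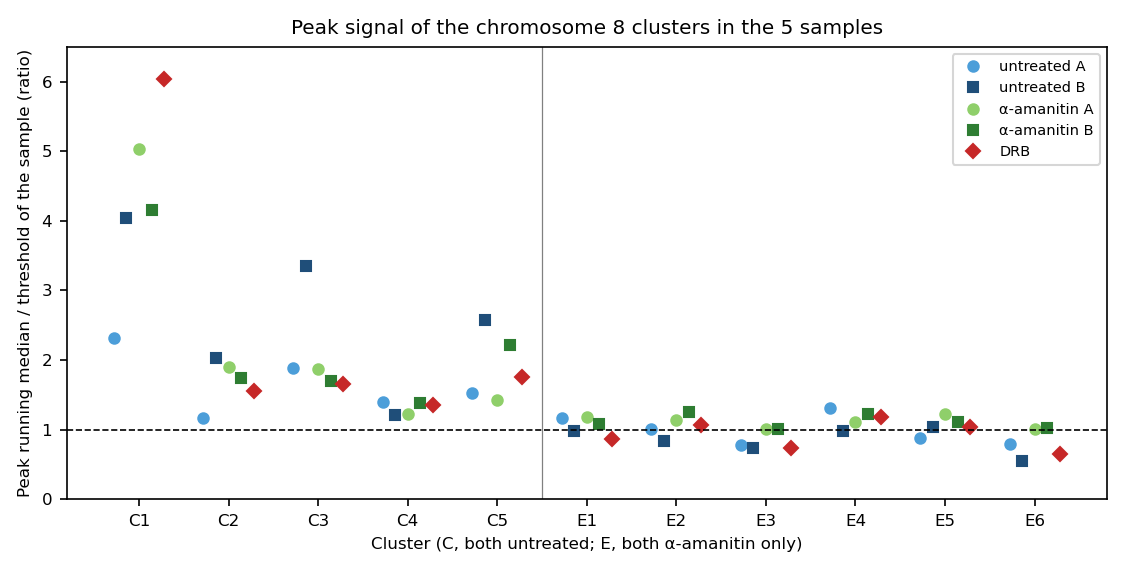
Highest running median in each cluster divided by the threshold of the sample (ratio, vertical axis) for the 5 clusters of both untreated samples and the 6 clusters of both α-amanitin samples only (horizontal axis), 1 point per sample. The dashed line is the threshold; all points of C1 to C5 lie above it, from 1.17 to 6.04, and the E clusters lie between 0.551 and 1.304.

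Most cluster probes that were bright without drug were also bright with it. Inside the 5 clusters 83 of 368 probes were bright in both untreated samples. Of these, 77 (92.8%) were bright in each α-amanitin sample, 54 (65.1%) with DRB, and 51 (61.4%) in all 3 treated samples. Outside the clusters 1520 of 58842 probes were bright in both untreated samples, and 72.9%, 60.4% and 73.0% of them were bright in the α-amanitin samples A and B and with DRB, respectively. Persistence of single bright probes was therefore common on the whole chromosome. Of cluster probes that were bright in neither untreated sample, 16.7% and 15.3% were bright in α-amanitin A and B, against 2.13% and 2.55% outside. In DRB the shares were 1.86% inside and 2.03% outside. These are counts of probes within 5 arrays, and probes of 1 cluster are not independent replicates.

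With DRB each of the 5 clusters had fewer bright probes than in any other sample, although the median signals of the clusters were not low. In C1, C2, C4 and C5, 27, 8, 5 and 12 probes were bright in DRB, and the lowest counts among the other 4 samples were 29, 9, 7 and 16. The gap was widest in C3. In C3 21 of 145 probes were bright in DRB (14.5%), against 48 and 49 in the untreated samples and 55 and 59 in the α-amanitin samples. The median signal of C3 was 3.49 times the chromosome's median in DRB, compared with 2.86 and 3.52 times in the untreated samples and 1.93 and 2.03 times in the α-amanitin samples. The bright limit was 4116 in DRB, 2051 and 2142 in the untreated samples and 1667 and 1165 in the α-amanitin samples, so a bright probe was a different signal in each.

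In both α-amanitin samples 314 windows passed and formed 11 clusters. Of these, 5 shared probes with an untreated cluster and 6, here called E1 to E6, did not. Naming all 6 goes beyond the 3 that the rule for named regions allows, and was decided after their values were seen. They were low: the lower of the 2 α-amanitin peaks was at most 1.14 times the threshold. The 3 with the highest such peak were E2, E5 and E4.

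E2 held 72 probes, places 37993 to 38064, 119 probes before C3. The running median peaked at 1131 and 826 in untreated A and B, 1311 and 996 in α-amanitin A and B, and 1586 in DRB. It was 1.003 and 0.828 times the threshold in the untreated samples, 1.14 and 1.26 times in the α-amanitin samples and 1.06 times in DRB. Untreated A and DRB thus also passed in at least 1 window.

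E5 held 38 probes, places 43420 to 43457. Its highest running median was 985 and 1032 in untreated A and B, 1409 and 880 in α-amanitin A and B, and 1546 in DRB, or 0.874, 1.03, 1.22, 1.11 and 1.04 times the thresholds. Of the untreated samples only B passed, in 3 windows. E4, of 51 probes at places 43112 to 43162, reached 1.304 times the threshold in untreated A, 0.983 times in untreated B, 1.11 and 1.23 times in the α-amanitin samples and 1.18 times in DRB. One untreated sample of E4 stood above both α-amanitin samples and the other just below its threshold.

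The remaining 3 were E1 (44 probes, 107 probes before E2), E3 (33 probes, between C3 and C4) and E6 (30 probes, 1961 probes after C5). E1 reached 1.17 and 0.980 times the threshold in the untreated samples and E3 reached 0.776 and 0.737 times. E6 reached 0.786 and 0.551 times. Of the 6, 4 (E1, E2, E4 and E5) therefore passed in 1 of the untreated samples, and E3 and E6 in neither. The thresholds of the α-amanitin samples were nearer to background, as given above, and the part of this in the additional clusters was not tested. DRB had 10 clusters by the same rule, of which 5 shared probes with an untreated cluster, 5 with α-amanitin clusters only and 0 with neither.

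C3 and C4, with the probes between them, formed a stretch of 349 probes, an estimated 0.751 Mb and 0.589% of the chromosome 8 probes. This stretch held 133 of the 222 windows above threshold in both untreated samples (59.9%), 135 of the 314 in both α-amanitin samples (43.0%) and 102 of the 227 in DRB (44.9%). E1, E2 and E3 lay in or beside it. The signal around C3 fell off with distance on a scale wider than the cluster itself.

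**Figure D3:**
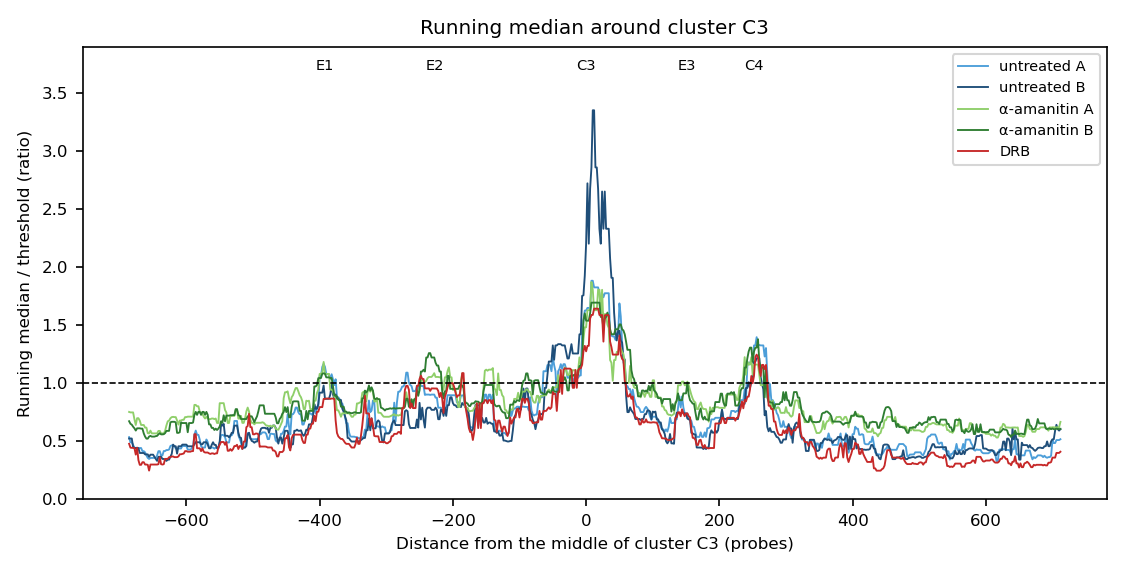
Running median of 29 probes divided by the threshold of the sample (ratio, vertical axis) against the distance in probes from the middle of C3 (horizontal axis), 1 line per sample, with the places of E1, E2, C3, E3 and C4 named at the top. The dashed line is the threshold; all 5 samples have their summit in C3 and a second one in C4.

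Within 75 probes of the middle of C3, 32% and 32.7% of the probes were bright in untreated A and B, 36.7% and 39.3% in α-amanitin A and B, and 14% in DRB. From 250 to 500 probes away the shares were 11.2%, 7.20%, 14.8%, 14.2% and 7.80% in the same order. From 500 to 1000 probes away they were 5.1%, 5%, 6.2%, 5.4% and 4.8%, close to the 5.20% to 5.76% found over all of chromosome 8. The median signal from 250 to 500 probes away was still 1.23 to 1.53 times the chromosome's median and from 500 to 1000 probes away 1.02 to 1.12 times. Between 250 and 500 probes, the side with lower running numbers had more bright probes than the other side in every sample, with 10% against 5.6% in DRB and 13.2% against 9.2% in untreated A. The side with lower numbers included all of E1 and part of E2, and the other side part of C4. From 100 to 500 probes beyond the edges of C1, 4.5% to 5.88% of the probes were bright in the 5 samples, around C2 3.50% to 4.25% and around C5 5% to 8.13%, whereas around C3 the shares were 7.75% to 14.9%. The 800 probes counted around C3 included 164 of C4, E1 and E2, whereas those around C1, C2 and C5 included none of another named cluster. Without these 164 probes the shares around C3 were 9.75% and 6.60% in untreated A and B, 12.3% and 11.5% in α-amanitin A and B, and 6.45% in DRB, lower but in each sample above the share around C5 in that sample. The ring widths were chosen after the profile had been seen, and no test was made.

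**Figure D4:**
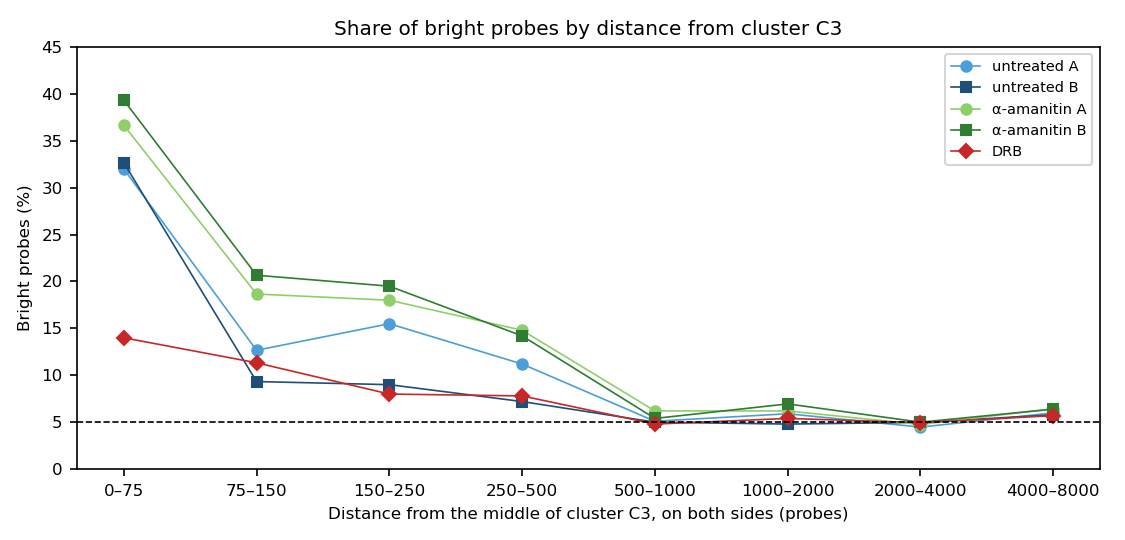
Share of bright probes (percent, vertical axis) in rings of increasing distance, in probes, from the middle of C3 (horizontal axis), 1 line per sample. The dashed line marks the share of all probes in trans that are bright by definition; in the ring from 500 to 1000 probes all samples lie between 4.8% and 6.2%, and in the rings farther out between 4.475% and 6.95%.

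The probes of the clusters were scattered over the array surface. The median distance between probes of 1 cluster was 444 to 514 spots for C1 to C5, and the median among 2961 evenly drawn probes of chromosome 8 was 457 spots. At most 1 pair of probes in a cluster lay within 5 spots. Runs of bright probes in the order were therefore not runs of neighbouring spots.

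In each of the 5 samples chromosome 8 held more windows of high signal than any other chromosome in trans. With 1 threshold for all 6 chromosomes, taken from random orders of all their probes, 0.515% and 0.373% of chromosome 8 windows passed in untreated A and B, 0.683% and 0.669% in α-amanitin A and B, and 0.370% in DRB. On the other 5 chromosomes together (10, 11, 12, 14 and 15) these shares were 0.0441%, 0.0706%, 0.0725%, 0.0501% and 0.0628%. The difference was 0.462 ± 0.155 percentage points (SD, n = 5) and positive in 5 of 5 samples, with an exact two-sided permutation p of 0.0625, the smallest that 5 samples allow. Chromosome 8 also ranked 1 of the 6 in every sample. Without the stretch of C3 and C4, a choice made after the data were seen, the difference was 0.228 ± 0.13 percentage points, positive in 5 of 5 samples, with the same exact p of 0.0625. Chromosome 8 then kept the highest share in 4 samples, whereas in untreated B it had 0.153%, below the 0.174% of chromosome 12. By the rule used above, in which each chromosome has its own threshold, chromosome 14 had 3 untreated clusters, chromosomes 11 and 12 had 1 each and chromosomes 10 and 15 had 0. All of these clusters also passed in both α-amanitin samples and in DRB. The samples share the array design, so the n of 5 covers sample preparation and hybridization and not the choice of probes.

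**Figure D5:**
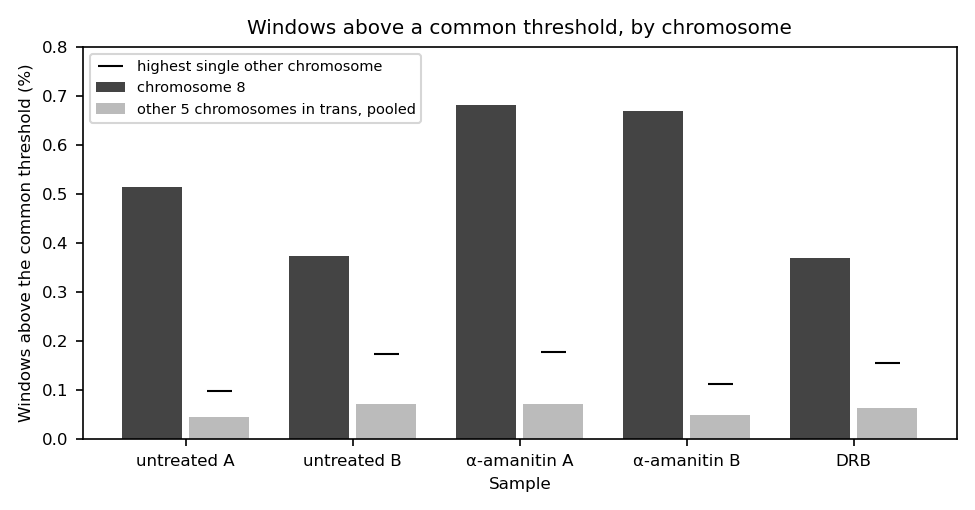
Share of windows above a threshold common to the 6 chromosomes in trans (percent, vertical axis) for chromosome 8 (dark bars) and the other 5 chromosomes pooled (light bars) in each sample (horizontal axis); the short black lines give the highest single chromosome among the other 5. Chromosome 8 is above that chromosome in all 5 samples.

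Outside the clusters, too, the samples ranked chromosome 8 windows alike. Over 2041 windows of 29 probes that do not overlap, the rank correlation averaged 0.766 ± 0.0549 (SD over 10 pairs of samples, which share samples), from 0.653 for untreated B with α-amanitin B to 0.836 for untreated A with DRB. The untreated duplicates had 0.777 and the α-amanitin duplicates 0.781, and 3 pairs of different treatment had 0.797, 0.830 and 0.836, higher than either. The 2025 of these 2041 windows that do not touch C1 to C5 had a mean of 0.760. Few windows touch the clusters, so both means mostly describe windows outside them. Single probes had a mean of 0.676. The same mean over windows was 0.675 to 0.729 on the other 5 chromosomes in trans and 0.717 on chromosome 7. When the chromosome 8 probes were put in 1 random order shared by all samples, the mean over windows was 0.508, so much of the correlation remained when neighbours in the order were no longer neighbours. Windows and probes are not independent replicates, and these values are given as a description.

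Whether α-amanitin changed the level of chromosome 8 windows was tested with limma on log2 window medians after quantile normalization, in a fit of 13261 windows of 7 chromosomes. At an adjusted p below 0.05, 0 windows (0%) were called for α-amanitin and 0 (0%) for DRB, on chromosome 8 as on the others. Of the 2041 chromosome 8 windows 194 (9.51%) had an unadjusted p below 0.05 for α-amanitin, against 9.18% of all windows, and 70 (3.43%) for DRB, against 3.84%. The share on chromosome 8 was thus near that of the whole table. For α-amanitin both shares lay above the 0.05 that p-values give when no window differs, and for DRB both lay below it. Why they did was not tested, and the lack of calls does not show that levels were unchanged. Leaving out α-amanitin A gave 9 calls on chromosome 8, leaving out α-amanitin B or untreated A gave 2 each, and without α-amanitin B DRB had 1 call; the lone sample of a group was then assumed to vary like the others. With the replicate letter, and so the dye, as a block, 4 chromosome 8 windows were called for α-amanitin (smallest limma adjusted p = 0.00830), and with dye as a term 1 was called for DRB (limma adjusted p = 0.0470).

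The chromosome 8 window with the smallest p for α-amanitin began at place 26797. Its log2 signal was 8.80 and 8.71 in the untreated samples, 9.17 and 9.38 in the α-amanitin samples and 8.65 in DRB. The log2 fold change was 0.51 (SE 0.10, limma adjusted p = 0.132). The next, at place 34221, was lower after α-amanitin, with a log2 fold change of -0.42 (SE 0.09, limma adjusted p = 0.144), and the third, at place 47474, had 0.38 (SE 0.09, limma adjusted p = 0.301). For DRB the windows at places 33496, 32800 and 30654 had log2 fold changes of 0.73, 0.42 and -0.43, with limma adjusted p-values of 0.848, 0.954 and 0.955. None of these 6 windows touched a cluster.

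Inside the clusters the largest limma estimates belonged to C1 and C2. The middle window of C1, places 7773 to 7801, had log2 signals of 11.48 and 11.72 in the untreated samples, 13.16 and 12.19 in the α-amanitin samples and 12.02 in DRB. On this normalized scale the groups did not overlap, but the difference of 1.07 had a standard error of 0.78 (limma adjusted p = 0.722). The middle window of C2, places 24883 to 24911, had 10.41 and 10.96 untreated, 11.98 and 11.35 after α-amanitin and 10.54 with DRB, a difference of 0.98 for α-amanitin with a standard error of 0.59 (limma adjusted p = 0.654). For the 6 windows that touch C3, the α-amanitin differences ran from -0.28 to 0.49. DRB differences in the same windows ran from -0.80 to 0.15, and the lowest had a standard error of 0.79 (limma adjusted p = 0.99987). The limma standard errors also draw on other windows of similar signal in the fit. They are therefore not the spread between these samples at C1 and C2 alone. In this fit the changes at C1 and C2 were not called.

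Taken over whole clusters, on the same normalized log2 scale, the median signal of C1 was 10.41 and 11.03 in the untreated samples and 12.14 and 11.59 in the α-amanitin samples, and that of C2 was 9.98 and 9.70 against 10.77 and 10.10. In C1 and C2 both α-amanitin samples were above both untreated samples, an arrangement also found in 25.5% of the chromosome 8 windows and 21.6% of all windows in the limma fit. In C3 (10.48 and 10.55 against 10.52 and 10.65), C4 (10.45 and 10.03 against 10.22 and 10.52) and C5 (10.15 and 9.75 against 10.06 and 10.30) they overlapped. DRB stood at 10.50, 9.89, 10.22, 10.08 and 10.09 in C1 to C5, inside the untreated range for C1, C2, C4 and C5 and below it for C3. On this scale the mean difference between α-amanitin and untreated was 1.14 for C1, 0.60 for C2, 0.07 for C3, 0.14 for C4 and 0.23 for C5. The direction of these differences turned with the scaling. As multiples of the chromosome 8 median of each sample, C1 was 2.74 and 5.11 untreated against 3.42 and 3.45 after α-amanitin, and C2 was 2.04 and 1.86 against 2.09 and 1.60, so on that scale both overlapped. C4, with 2.80 and 2.38 against 1.73 and 1.91, and C5, with 2.31 and 1.93 against 1.62 and 1.74, were lower in both α-amanitin samples than in both untreated samples, as was C3 with the values given above. The mean log2 difference on that scale was -0.12 for C1, -0.09 for C2, -0.68 for C3, -0.51 for C4 and -0.33 for C5, and it was not tested.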

How the data were processed

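4C products of 5 samples were hybridized to NimbleGen arrays. The authors deposited, for each sample, the uncorrected signal intensity (PM) of 1 dye channel, read with NimbleScan 2.3.19 per the file headers, with no background correction or normalization. Probes of 60 bases lay within 100 bp of HindIII sites, and those like repeats or with several genomic hits had been left out by the authors. An array has no read depth, so the number of arrays limits the precision.

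Here probes were ordered by running number. Running medians of 29 probes, thresholds (100 seeded orders per sample), clusters (windows sharing probes joined) and rank correlations came from Python 3.11.15 with scipy 1.17.1, pandas 2.3.3, matplotlib 3.10.9 (figures) and numpy 2.4.6. limma 3.58.1 in R 4.3.3 (lmFit, eBayes with trend, Benjamini-Hochberg adjustment over all windows) tested log2 medians after quantile normalization. The cluster caller and limma fit were also run on simulated data, on which no result here rests. For the caller each sample was shuffled on its own, which removes any brightness of a probe shared by the samples. Named regions are all untreated clusters, up to 3 α-amanitin clusters sharing no probe with them, and the 3 windows with the smallest limma p per drug. Members and lists were chosen with earlier results of these data known, and an earlier look with fewer, otherwise seeded orders gave lower thresholds and more clusters. Alternatives varied window, averaging, orders, normalization, brightest probes, samples left out, replicate block and dye.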

Additional observations from a re-analysis of the deposited data

How the results depend on the processing

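The counts of clusters moved most with the number of random orders and with the running mean at a false discovery rate below 0.05, which changes the averaging and the threshold rule together. With 1 random order in place of 100 there were 20 untreated regions, 13 untreated clusters, 10 of them in α-amanitin and 11 in DRB, and 20 α-amanitin clusters. That running mean left 2 regions, 1 untreated cluster, 0 of it in α-amanitin or DRB, and 1 α-amanitin cluster. Windows of 15 probes gave 5 regions, 4 untreated clusters, only 2 of them in DRB, and 6 α-amanitin clusters. Other seeds, added after seeing the data, gave as few as 5 regions and 6 α-amanitin clusters. Leaving out 1 sample gave 9 to 15 regions and 8 untreated clusters whichever of the untreated samples was left out, 5 to 8 of the untreated clusters in α-amanitin and 5 to 8 in DRB, and 15 to 16 α-amanitin clusters; the higher counts come from asking only 1 sample to pass. Windows of 59 probes, pooled orders, quantile normalization and removal of the brightest probes kept these 5 counts within 1.5 times the main ones. Under the 6 alternatives that kept all probes, the lower untreated peak stayed above threshold in 22 of 30 cases over C1 to C5; the running mean took it below in all 5, and windows of 15 or 59 probes in C2 or C4. The mean rank correlation was 0.695 with windows of 15 probes, 0.838 with 59, 0.627 with window means and 0.508 in a shared random order.

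The difference between chromosome 8 and the other chromosomes in trans was positive in every sample under each alternative, but its size ran from 0.0616 (running mean) to 3.36 percentage points (99th percentile of the other chromosomes as threshold). Same-letter samples did not deviate together (correlation of -0.067 over 2041 windows), so the letters were not taken to pair the samples; each letter went with 1 dye in both groups, so a block for the letter is also one for the dye. With the replicate block, limma called 4 chromosome 8 windows for α-amanitin, and with dye as a term 1 for DRB. Leaving out 1 sample gave 0 to 9 calls for α-amanitin and 0 to 1 for DRB. The other alternatives gave 0. The cause of these changes was not tested unless stated. A block for a shared array was not run, since the 5 samples came from 5 arrays. No result met a rule for a closer look, as groups of 1 or 2 samples cannot show an outlying sample.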
